A study of Mus musculus with 12 samples.

Results

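The C/EBP genes, 5 of the 40597 loci in an RNA table of mouse neurospheres, were chosen by name: Cebpa, Cebpb, Cebpd, Cebpg and Cebpz. Each had a row of its own, joined with no other gene, and all 5 averaged 1 FPKM or more across the libraries, the filter for testing. FPKM are fragments scaled by transcript length and library size, so levels of different genes can be set side by side where the transcript lengths are right. The cultures were neurospheres, floating clusters of neural stem and progenitor cells, grown from the hypothalamus of C57Bl/6 fetuses at embryonic day 14.5 and treated at passage 3. The 4 groups were female cultures given 100 nM dexamethasone for 4 hours, female cultures given ethanol vehicle, male cultures given dexamethasone and male cultures given vehicle, with 3 biological replicates in each. Dexamethasone is a synthetic agonist of the glucocorticoid receptor. Cebpb, at a mean of 0.969 FPKM with vehicle, passed the filter of 1 FPKM only through the dexamethasone libraries.

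C/EBP proteins are transcription factors that pair through a leucine zipper and bind DNA through the basic region next to it. C/EBPα, C/EBPβ and C/EBPδ carry activation domains and are best known from fat cells, liver and myeloid cells. In fat cell precursors, hormone mixtures that contain dexamethasone raise C/EBPβ and C/EBPδ early and C/EBPα later. In neural progenitors C/EBPβ is known for promoting the formation of neurons, and in astrocytes C/EBPδ takes part in the response to inflammation. C/EBPγ lacks an activation domain and pairs with the others and with ATF4. The Cebpz protein shares the family name through binding to CCAAT boxes, has no leucine zipper of this kind, and is related to yeast Noc1, a factor of ribosome assembly.

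Cebpg and Cebpa lie on chromosome 7, 62719 bases apart, Cebpg at 35046422 to 35056573 on the minus strand and Cebpa at 35119293 to 35121928 on the plus strand. Cebpb lies on chromosome 2 at 167688915 to 167690418 and Cebpd on chromosome 16 at 15887286 to 15891031, both on the plus strand. Cebpz lies on chromosome 17 at 78919006 to 78937066 on the minus strand. These are GENCODE M21 coordinates on GRCm38, the build of the deposited table. The deposited table gives the biotype of Cebpd as pseudogene, and GENCODE M21 lists it as protein coding. The deposited Cebpd locus ends at 15888466, before the GENCODE end, so the level of Cebpd against other genes depends on a shorter model.

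Promoter sequences were in the RefSeq table (GRCm38.p6) for Cebpa, Cebpb and Cebpg, and had no entry for Cebpd and Cebpz. They are shown so that the letters around the starts of 2 activator genes can be set beside those of Cebpg. Each window runs 5′ to 3′ on the gene's strand, from 250 bases before the start to 50 bases after it, with the start at base 251. Capitals mark matches on either strand to 4 motifs. TATAAA is the letters of a TATA box, and TTGCG is the core of a C/EBP site. TGACG is the core of a cAMP response element and reads CGTCA on the other strand. The CCAAT box reads ATTGG on the other strand. The windows are chr7:35119043-35119342 (plus strand) for Cebpa, chr2:167688665-167688964 (plus strand) for Cebpb and chr7:35056517-35056816 (minus strand) for Cebpg.
Cebpa: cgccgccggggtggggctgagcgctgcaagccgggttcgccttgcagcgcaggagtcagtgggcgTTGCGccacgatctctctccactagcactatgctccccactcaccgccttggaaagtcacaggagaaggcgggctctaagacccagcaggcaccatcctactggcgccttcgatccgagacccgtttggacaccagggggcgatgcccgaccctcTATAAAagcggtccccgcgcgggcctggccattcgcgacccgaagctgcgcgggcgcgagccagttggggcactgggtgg
Cebpb: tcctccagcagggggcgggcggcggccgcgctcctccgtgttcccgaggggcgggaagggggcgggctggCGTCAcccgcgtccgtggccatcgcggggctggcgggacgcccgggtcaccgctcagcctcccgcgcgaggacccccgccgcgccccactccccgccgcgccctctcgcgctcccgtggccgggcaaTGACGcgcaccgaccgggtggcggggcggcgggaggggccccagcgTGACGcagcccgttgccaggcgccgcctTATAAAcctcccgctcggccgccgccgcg
Cebpg: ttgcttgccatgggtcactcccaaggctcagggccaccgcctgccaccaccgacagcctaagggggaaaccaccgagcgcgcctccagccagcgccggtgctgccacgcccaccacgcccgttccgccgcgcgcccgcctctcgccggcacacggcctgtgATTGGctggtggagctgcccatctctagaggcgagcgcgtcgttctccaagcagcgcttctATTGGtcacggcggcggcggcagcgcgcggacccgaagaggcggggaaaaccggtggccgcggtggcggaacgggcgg

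The Cebpa window held TTGCG from base 66 and TATAAA from base 221, the usual distance of a TATA box before a start. The Cebpb window held 3 matches to TGACG, from bases 71, 198 and 244, and TATAAA from base 272, which is past the annotated start. It also held 5 matches to the GC box GGGCGG, left in lower case, of which those from bases 13 and 17 overlap. The Cebpg window held CCAAT on the other strand from bases 162 and 223, and 1 GC box from base 295. None of the 3 windows held AGAACA, the core of a glucocorticoid response element, on either strand, and so none held the whole element, in which AGAACA and TGTTCT stand 3 bases apart. Of 32851 promoters of this length, 13.6% held TATAAA, 17.4% TTGCG, 20.8% TGACG, 37.4% CCAAT, 35.7% GGGCGG, 19.0% AGAACA and 0.00913% the whole element. G and C made up 67.3% of the Cebpa window, 80.7% of the Cebpb window and 71.7% of the Cebpg window, against a median of 52.7% over all promoters. A match to letters is a description of the sequence and shows no binding.

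The libraries had 13755 to 14826 loci at 1 FPKM or more. Loci without a gene name took 75.0% of all FPKM in male vehicle library 3, 53.1% in male dexamethasone library 2 and 11.6% to 38.6% in the other libraries. All 10 neural stem cell markers, among them Sox2 and Nes, averaged at least 1 FPKM, and their summed level was 5867 to 7598 FPKM in dexamethasone libraries and 6114 to 7474 FPKM in vehicle libraries. All 6 astrocyte markers passed that level too, with sums of 315 to 873 FPKM in dexamethasone libraries and 237 to 552 FPKM in vehicle libraries. Aldoc alone averaged 401 FPKM. All 6 oligodendrocyte lineage markers passed as well, with sums of 328 to 427 FPKM with dexamethasone and 335 to 413 FPKM with vehicle. Of 6 neuron markers 3 passed, and Map2 alone averaged 274 FPKM. The neuron markers summed to 250 to 320 FPKM with dexamethasone and 227 to 347 FPKM with vehicle. Of 12 markers of microglia and macrophages, cells in which C/EBP factors are prominent, 1 averaged at least 1 FPKM. Their sum was 1.02 to 2.69 FPKM in dexamethasone libraries and 1.14 to 3.63 FPKM in vehicle libraries, with C1qa and C1qb at 0 throughout. Fkbp5, a standard glucocorticoid-induced gene, had 94.9 to 157 FPKM in dexamethasone libraries and 15.6 to 25.5 FPKM in vehicle libraries. What made a replicate separate (animal, litter or culture) is not stated in the labels, and the p-values speak only to variation among the cultures sequenced.

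In the main fit, which took no libraries as pairs, Cebpd and Cebpa rose under dexamethasone. Cebpb was higher in every dexamethasone library but narrowly missed the threshold, and Cebpg and Cebpz did not pass the test. With a block for the replicate number in each sex, Cebpa, Cebpb and Cebpd were called higher. That fit called 420 of the 14931 loci tested higher. The counts below are of the main fit. Cebpb averaged 0.969 FPKM with vehicle and passed the filter of 1 FPKM only through the dexamethasone libraries. Its tests and its place in these counts, also within each sex, are therefore a description only. In the effect averaged over both sexes, 2 of the 5 genes were called higher, against a background of 1.15% of the 14931 loci tested, and none was called lower (limma on log2(FPKM + 1), Benjamini-Hochberg over all tested loci, adjusted p under 0.05). An unadjusted p under 0.05 was found for 4 of the 5, against 13.6% of all tested loci. The median log2 change of the 5 was 0.88, and that of all tested loci was -0.01. For Cebpb and Cebpd, every dexamethasone library lay above every vehicle library, which held for 1.41% of all tested loci. In whole cultures, more RNA per cell and more cells of a type that makes it cannot be told apart.

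**Figure D1:**
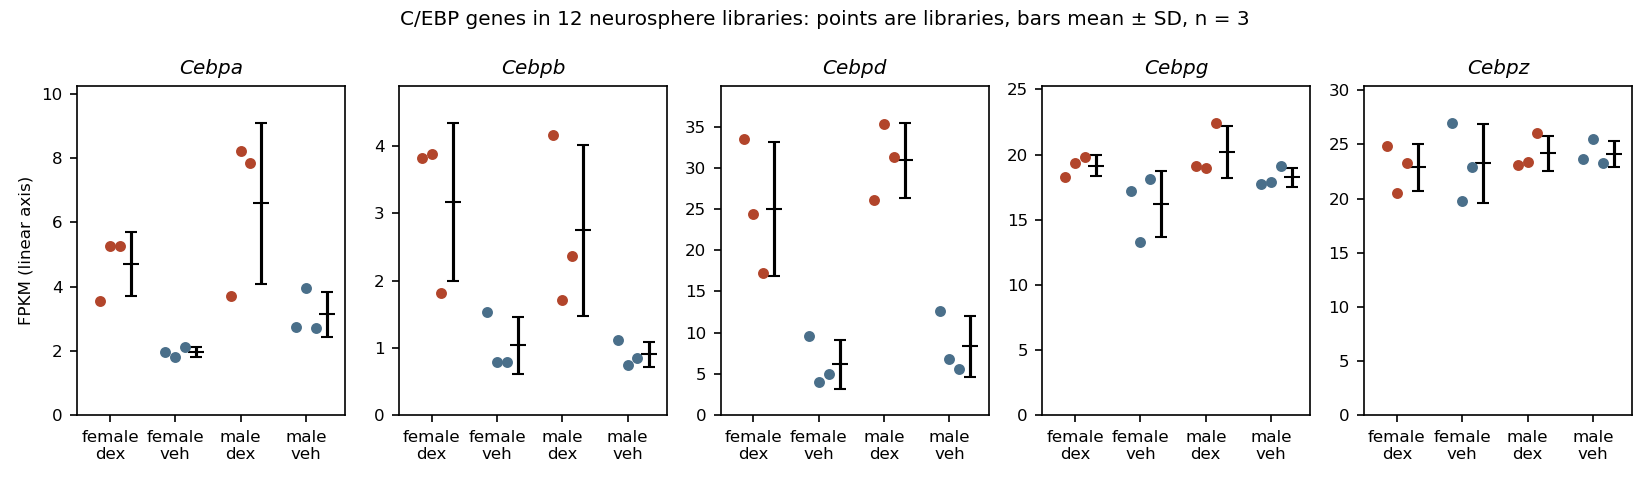
FPKM of the 5 genes (linear axes from 0, 1 panel per gene) in each of the 12 libraries, by group; dex is dexamethasone, veh is vehicle, points are libraries and bars are the mean ± SD of 3. Red dexamethasone points lie above all blue vehicle points for Cebpb and Cebpd, overlap them for Cebpa because of male vehicle library 2 at 3.95 FPKM, and mix with them for Cebpz.

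Cebpd showed the largest response of the 5. C/EBPδ is an activator that in many cell types is induced quickly by hormones and cytokines. Cebpd had 33.5, 24.4 and 17.2 FPKM in female dexamethasone libraries 1, 2 and 3, against 9.54, 4.00 and 4.94 FPKM in the female vehicle libraries. In males it had 26.1, 35.3 and 31.3 FPKM in the dexamethasone libraries, against 12.6, 6.75 and 5.63 FPKM in the vehicle libraries. The lowest dexamethasone value, in female library 3, was above the highest vehicle value, in male library 1, so the treatments did not overlap. Over both sexes the level averaged 28.0 ± 6.74 FPKM with dexamethasone and 7.24 ± 3.25 FPKM with vehicle (SD, n = 6 each). The log2 change averaged over the sexes was 1.86 (SE 0.25, 95% confidence interval 1.31 to 2.41, limma adjusted p = 0.00425), higher than that of 99.42% of tested loci. Leaving out any 1 library kept the call, with changes from 1.75 to 2.02. With both libraries rich in unnamed loci left out, the change was 1.71 and the limma adjusted p was 0.0414. Cebpd was thus the one member called in every fit that left out libraries.

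The vehicle cultures were not uniform in Cebpd. Library 1 held the highest vehicle value in either sex, 9.54 FPKM in females and 12.6 FPKM in males, and the other 4 vehicle libraries lay between 4.00 and 6.75 FPKM. Cebpb too was highest in library 1 among the vehicle libraries of either sex.

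Cebpb codes for C/EBPβ, an activator that also has a short inhibitory form made from the same mRNA, which these values cannot separate. Its average level was the lowest of the 5 genes. Cebpb had 3.82, 3.88 and 1.81 FPKM in female dexamethasone libraries 1, 2 and 3, against 1.53, 0.783 and 0.793 FPKM in the female vehicle libraries. Male cultures had 4.17, 1.71 and 2.36 FPKM with dexamethasone, against 1.11, 0.747 and 0.853 FPKM with vehicle. Each dexamethasone library was above each vehicle library, though male dexamethasone library 2 at 1.71 FPKM came close to female vehicle library 1 at 1.53 FPKM. The averages were 2.96 ± 1.12 FPKM with dexamethasone and 0.969 ± 0.304 FPKM with vehicle (SD, n = 6 each). The averaged log2 change was 0.97 (SE 0.21, 95% confidence interval 0.51 to 1.43) and just missed the threshold (limma adjusted p = 0.0523), in a place above 97.79% of tested loci. The adjusted p-values and calls of Cebpb are a description only, since the filter let it in through the dexamethasone libraries. With no filter on low values the limma adjusted p was 0.0875. The pseudocount of 1 that was added before taking logs is about as large as the vehicle level of Cebpb and understates its change. With a pseudocount of 0.1 the log2 change was 1.47 and the limma adjusted p was 0.0351. The call therefore turned on the scale used, on pairing and on single libraries. With a block for the replicate number the call was made (limma adjusted p = 0.0274). It was also made without female dexamethasone library 3 (limma adjusted p = 0.0304) or male dexamethasone library 2 (limma adjusted p = 0.0488), and in no other fit that left out 1 library.

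Cebpa codes for C/EBPα, the activator known for stopping cell division and for the late steps of fat and myeloid cell formation. Cebpa had 3.56, 5.28 and 5.27 FPKM in female dexamethasone libraries 1, 2 and 3, against 1.97, 1.81 and 2.12 FPKM in the female vehicle libraries. In male cultures it had 3.70, 8.23 and 7.86 FPKM with dexamethasone, against 2.74, 3.95 and 2.72 FPKM with vehicle. The female groups were apart, while among males dexamethasone library 1 was below vehicle library 2. The averages were 5.65 ± 2.00 FPKM with dexamethasone and 2.55 ± 0.789 FPKM with vehicle (SD, n = 6 each). The averaged log2 change was 0.88 (SE 0.18, 95% confidence interval 0.48 to 1.28, limma adjusted p = 0.0449), just inside the threshold and above that of 97.43% of tested loci. This call was fragile. It was kept without male dexamethasone library 1 (log2 change 1.04, limma adjusted p = 0.00376) and was lost when any 1 of the other 11 libraries was left out, with adjusted p up to 0.118. Without the 2 libraries rich in unnamed loci the log2 change was 0.76 and the limma adjusted p was 0.223.

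Cebpa and Cebpb did not follow the same order over the dexamethasone cultures. Male dexamethasone library 1 had the highest Cebpb of all, 4.17 FPKM, beside a Cebpa of 3.70 FPKM, and male dexamethasone library 2 had the highest Cebpa, 8.23 FPKM, beside the lowest Cebpb with dexamethasone, 1.71 FPKM. Cebpd exceeded Cebpb by a factor of 6.27 to 20.6 in dexamethasone libraries and of 5.11 to 11.4 in vehicle libraries. Its ratio to Cebpa was 3.27 to 9.41 in dexamethasone libraries and 1.71 to 4.84 in vehicle libraries. Cebpd was therefore above both other activators in all 12 libraries.

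Cebpg, which codes for the partner without an activation domain, had a narrow range of levels. It had 18.3, 19.4 and 19.8 FPKM in female dexamethasone libraries 1, 2 and 3, against 17.2, 13.3 and 18.1 FPKM in the female vehicle libraries. Male cultures had 19.1, 19.0 and 22.5 FPKM with dexamethasone, against 17.7, 17.9 and 19.1 FPKM with vehicle. The female groups touched without overlapping, the male groups overlapped, and female vehicle library 2 stood lowest. The averages were 19.7 ± 1.45 FPKM with dexamethasone and 17.2 ± 2.02 FPKM with vehicle (SD, n = 6 each), with a log2 change of 0.19 (SE 0.08, 95% confidence interval 0.01 to 0.36). This did not pass the test over all loci (limma adjusted p = 0.340). The interval bounds the change below 0.36, and the lower bound for Cebpd was 1.31.

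Cebpz, the CCAAT-binding relative of Noc1, had similar levels under both treatments. Its values were 24.8, 20.6 and 23.3 FPKM in female dexamethasone libraries 1, 2 and 3, against 27.0, 19.8 and 22.9 FPKM in the female vehicle libraries. In males they were 23.1, 23.4 and 26.1 FPKM with dexamethasone, against 23.6, 25.5 and 23.3 FPKM with vehicle. The groups overlapped fully in both sexes. The averages were 23.5 ± 1.86 FPKM with dexamethasone and 23.7 ± 2.45 FPKM with vehicle (SD, n = 6 each), and the log2 change was -0.01 (SE 0.08, 95% confidence interval -0.19 to 0.17, limma adjusted p = 0.985). Its sign changed when single libraries were left out, within a range of -0.06 to 0.05.

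Cebpe, another leucine zipper member, known from granulocytes, was listed at 0 in all 12 libraries. The 4 that were measured formed a different mixture under the 2 treatments. Their summed level ran from 44.1 to 64.2 FPKM in the dexamethasone libraries, with a median of 56.1, and from 19.9 to 34.2 FPKM in the vehicle libraries, with a median of 28.8. Cebpd made up 39.1% to 56.6% of that sum with dexamethasone and 19.0% to 36.9% with vehicle. Cebpg made up 29.6% to 44.9% with dexamethasone and 51.8% to 69.8% with vehicle. Neither pair of ranges overlapped, and Cebpg was the most abundant of the 4 transcripts in every vehicle library. The 3 activators together gave 1.23 to 2.38 times the level of Cebpg in dexamethasone libraries, with a median of 1.81, and 0.433 to 0.929 times in vehicle libraries, with a median of 0.568. This ratio was above 1 in all 6 dexamethasone libraries and below 1 in all 6 vehicle libraries. It is built from the same values as the gene results above and adds no separate evidence. Shares and ratios between genes also depend on the transcript models, of which that of Cebpd was shortened. These are transcript levels, and neither protein nor pairing was measured.

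**Figure D2:**
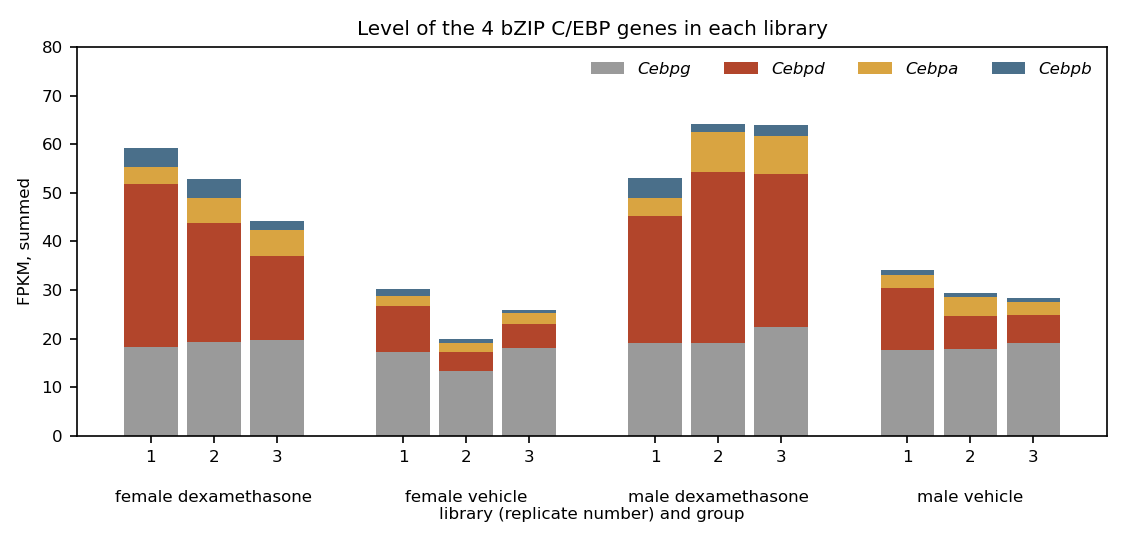
Summed FPKM of Cebpg, Cebpd, Cebpa and Cebpb (stacked bars from 0, linear axis) in each library, by group and replicate number. The grey Cebpg segment stays between 13.3 and 22.5 FPKM, while the red Cebpd segment is 17.2 to 35.3 FPKM high in dexamethasone libraries and 4.00 to 12.6 FPKM high in vehicle libraries.

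Within each sex, 3 libraries against 3, no member was called. In females 0 of 5 were called higher against a background of 0.449% of tested loci, and 3 of 5, namely Cebpa, Cebpb and Cebpd, had an unadjusted limma p under 0.05, against 8.02% of tested loci. In males 0 of 5 were called higher against 0.288%, and the same 3 had an unadjusted limma p under 0.05, against 6.38%. Cebpd came nearest in either sex, with a log2 change of 1.89 in females (limma adjusted p = 0.0546) and 1.84 in males (limma adjusted p = 0.0825). The log2 changes of Cebpb were 1.01 in females and 0.93 in males, with limma adjusted p of 0.294 in females and 0.464 in males. The log2 changes of Cebpa were 0.93 in females and 0.83 in males, with limma adjusted p of 0.264 in females and 0.452 in males. Every dexamethasone library was above every vehicle library for 4 of 5 members in females, against 6.95% of tested loci. In males this held for 2 of 5 members, Cebpb and Cebpd, against 5.73%.

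**Figure D3:**
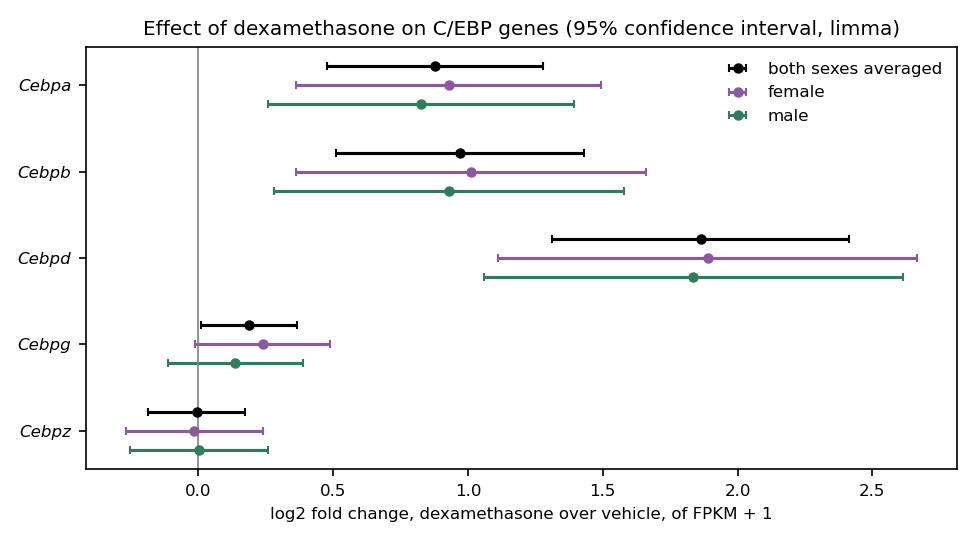
Log2 change of FPKM + 1, dexamethasone over vehicle, for each gene, with points at the limma estimate and bars for the 95% confidence interval, for both sexes averaged, females and males. The female and male intervals overlap for every gene, and Cebpd lies farthest to the right at 1.86 averaged. All Cebpz intervals span 0, as do the female and male intervals of Cebpg.

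The response was set against the other sex directly through the interaction, the female change minus the male change. It was called for 0 of 5 members, against 0.0335% of tested loci, and 0 of 5 had an unadjusted limma p under 0.05. For Cebpd the difference was 0.05 on the log2 scale with a 95% confidence interval of -1.05 to 1.15. The intervals were -0.84 to 1.00 for Cebpb and -0.70 to 0.90 for Cebpa. They are wide enough to hold a sex difference as large as the averaged response of Cebpb or Cebpa, so a like response in the sexes was not shown. The tighter interval for Cebpg ran from -0.25 to 0.46.

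The level by sex, with the treatments balanced, was called for 0 of 5 members, against 0.107% of tested loci. Cebpa had an unadjusted limma p under 0.05, the only one of the 5 to do so, against 7.68% of tested loci. It averaged 3.34 ± 1.63 FPKM in the 6 female libraries and 4.87 ± 2.51 FPKM in the 6 male libraries, a log2 difference of -0.42 (female minus male, 95% confidence interval -0.82 to -0.02, limma adjusted p = 0.638). Under either treatment the Cebpa group mean was lower in females, at 4.70 ± 0.991 FPKM in females and 6.60 ± 2.52 FPKM in males with dexamethasone, and 1.97 ± 0.156 FPKM in females and 3.14 ± 0.706 FPKM in males with vehicle (SD, n = 3 each). The female and male vehicle libraries did not overlap for Cebpa, and the dexamethasone libraries did. The share of all tested loci whose vehicle libraries separate by sex was not counted, so this is a description only.

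The level order under dexamethasone was Cebpd at 28.0 FPKM, Cebpz at 23.5 FPKM, Cebpg at 19.7 FPKM, Cebpa at 5.65 FPKM and Cebpb at 2.96 FPKM. With vehicle it was Cebpz at 23.7 FPKM, Cebpg at 17.2 FPKM, Cebpd at 7.24 FPKM, Cebpa at 2.55 FPKM and Cebpb at 0.969 FPKM. Cebpd thus stood above Cebpz and Cebpg on average with dexamethasone and below both with vehicle, and its range with dexamethasone, 17.2 to 35.3 FPKM, covered those of Cebpz and Cebpg. Cebpa and Cebpb overlapped in the dexamethasone libraries, and with vehicle every Cebpa value was above every Cebpb value.

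Several members overlap other genes, and the strand setting of the counting was not given in the sources at hand. Cebpb shares 908 bases with the start of Tmem189 on the other strand. The deposited Cebpb locus runs from 167553314 to 167690418 and takes in all of Tmem189. Whether the low Cebpb values hold reads from that stretch is unknown. The row that joins Tmem189 with Gm20431 and Ube2v1 stood at 55.3 ± 4.04 FPKM with dexamethasone and 54.0 ± 3.79 FPKM with vehicle (SD, n = 6 each), far above Cebpb and close to equal in both. Its log2 change was 0.03, against 0.97 for Cebpb. Cebpd shares 1808 bases with Spidr on the other strand in GENCODE M21, but the deposited Cebpd locus ends at 15888466, short of the near end of Spidr at 15889224. Spidr had 13.3 ± 1.61 FPKM with dexamethasone and 11.4 ± 1.38 FPKM with vehicle (limma adjusted p = 0.382). Cebpz shares 1301 bases with 1110001A16Rik on the other strand, which had 11.9 ± 2.203 FPKM with dexamethasone and 10.7 ± 1.62 FPKM with vehicle (limma adjusted p = 0.654). The deposited Cebpz locus runs from 78916499 to 78937070 and takes in all of 1110001A16Rik. Whether the Cebpz values hold reads from 1110001A16Rik is unknown. Ndufaf7, 69 bases from the start of Cebpz on the other strand, had 9.07 to 10.5 FPKM with dexamethasone and 8.28 to 10.4 FPKM with vehicle. Cebpa overlaps the antisense RNA Gm45091 by 313 bases, and Cebpg overlaps the antisense RNA Gm45095 by 353 bases. No row was matched to either, so their share in the Cebpa and Cebpg values is unknown.

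The loci most like Cebpd over the 12 libraries were found from log2(FPKM + 1) after subtracting each locus' own mean, as the root mean square difference between the profiles. They were Nedd9 at 0.450, Klf9 at 0.463, Mertk at 0.476, Ada at 0.497 and 1810011O10Rik at 0.499. Their log2 changes under dexamethasone were 1.97 for Nedd9, 2.00 for Klf9, 1.80 for Mertk and 2.27 for Ada, against 1.86 for Cebpd. That of 1810011O10Rik was lower, at 1.18, and was not called (limma adjusted p = 0.0620). Klf9 is a well-known glucocorticoid-induced zinc finger factor, Nedd9 an adhesion scaffold, Mertk a receptor for the uptake of dying cells, and Ada the enzyme adenosine deaminase. For Cebpb the nearest were Pmp22 at 0.207, Sap30 at 0.209, Cdh19 at 0.212, Arrdc2 at 0.224 and Bcl6 at 0.230, with log2 changes of 1.05, 1.12, 1.04, 0.96 and 1.19 in that order. Pmp22 codes for a myelin protein, Sap30 for a subunit of a histone deacetylase complex, Cdh19 for a cadherin of glial lineages, Arrdc2 for an arrestin-like protein and Bcl6 for a repressor. A profile of this kind is set mainly by treatment, so the changes of these loci follow from their choice and are given as a description.

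Genes of related families and of known C/EBP targets were looked up in the averaged effect (7 lists chosen with earlier results of these data known). Jun, Lifr and Klf4 were called, and Lcn2 is described apart. Further list genes called only with the replicate block are named in the closing section. Among other leucine zipper factors, 0 of 17 tested genes were called higher and 1 was called lower, against 1.15% and 0.388% of all tested loci, and 6 had an unadjusted limma p under 0.05, against 13.6% of all tested loci. Their median log2 change was -0.09. The gene called lower was Jun, a component of AP-1, in a row joined with Gm12703. It averaged 31.7 ± 4.69 FPKM with dexamethasone and 50.3 ± 7.03 FPKM with vehicle (SD, n = 6 each), and every dexamethasone library was below every vehicle library. The share of all tested loci separated in this direction was not counted. The log2 change was -0.65 (SE 0.13, limma adjusted p = 0.0357). The call held on leaving out library 1 of female dexamethasone, 2 of female vehicle, 3 of male dexamethasone or 1 of male vehicle, and was lost without any 1 of the other 8 libraries, with adjusted p up to 0.0995. With no filter on low values it was lost too (adjusted p = 0.0544). Atf4, a partner of C/EBPγ in the stress response, had 82.3 ± 17.8 FPKM with dexamethasone and 85.7 ± 19.3 FPKM with vehicle (limma adjusted p = 0.928). Tef, a factor of the PAR family, had 61.9 ± 8.51 FPKM with dexamethasone and 46.2 ± 9.11 FPKM with vehicle (limma adjusted p = 0.242).

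Of 19 tested genes that control C/EBP synthesis, activity or decay, 1 was called higher and 1 was called lower, against the 1.15% and 0.388% above. An unadjusted limma p under 0.05 was found for 7 of them, against 13.6% of all tested loci, and the median log2 change was -0.11. Lifr, the receptor of leukemia inhibitory factor, which signals to C/EBP genes through STAT3, had 26.3, 26.8 and 25.1 FPKM in female dexamethasone libraries 1, 2 and 3, against 15.7, 17.7 and 15.5 FPKM in the female vehicle libraries. In males it had 28.1, 21.3 and 24.1 FPKM with dexamethasone, against 15.6, 13.9 and 17.7 FPKM with vehicle. Every dexamethasone library lay above every vehicle library, as for 1.41% of all tested loci. The log2 change of Lifr was 0.63 (SE 0.08, limma adjusted p = 0.00382). Klf4, a zinc finger factor that switches on Cebpb in fat cell precursors, fell to 1.76 ± 0.207 FPKM with dexamethasone, against 3.32 ± 0.797 FPKM with vehicle (SD, n = 6 each). Its log2 change was -0.63 (SE 0.13, limma adjusted p = 0.0394), and leaving out 1 library ended the call in every case except female vehicle library 2, with adjusted p up to 0.105. The call was lost as well with no filter on low values (adjusted p = 0.0860) and with quantile normalization (adjusted p = 0.0523). Not called were Calr, which binds C/EBP mRNAs (405 ± 28.7 FPKM with dexamethasone and 388 ± 23.7 FPKM with vehicle) and Trib2, which promotes the decay of C/EBPα (127 ± 12.5 FPKM with dexamethasone and 149 ± 12.8 FPKM with vehicle).

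Known C/EBP target genes of other tissues were mostly near 0 in these cultures. Of 16 inflammatory and acute phase targets 5 passed the filter. Among the 5, Lcn2, which codes for an iron-binding acute phase protein of astrocytes and liver, passed the filter of 1 FPKM only through the dexamethasone libraries. None of the other 4 was called, against 1.15% called higher and 0.388% called lower of all tested loci. Of these 4, Ccl2 alone had an unadjusted limma p under 0.05, against 13.6% of all tested loci. Their median log2 change was 0.25. Lcn2 had 4.47, 2.14 and 1.59 FPKM in female dexamethasone libraries 1, 2 and 3 and 7.15, 2.06 and 0.539 FPKM in the male ones. Lcn2 was listed at 0 in all 6 vehicle libraries, so no fold is given, and an exact 0 in such a table can be a failed estimate. Its adjusted p of 0.0436 (limma) is a description only, since the filter let it in through the high group, and was 0.0615 with no filter. Leaving out 1 library gave adjusted p up to 0.121 for Lcn2, and without male dexamethasone library 1 its mean was below 1 FPKM. Ccl2, a chemokine, ranged widely, with 2.12, 15.1 and 9.61 FPKM in female dexamethasone libraries 1, 2 and 3, against 1.84, 2.46 and 2.38 FPKM in the female vehicle libraries. In males it had 2.81, 14.98 and 20.9 FPKM with dexamethasone, against 1.68, 4.70 and 5.53 FPKM with vehicle. Library 1 was the lowest for Ccl2 in every group, and the change was not called (limma adjusted p = 0.310). Tnfaip6, a hyaluronan-binding protein, was not called at 21.7 ± 2.45 FPKM with dexamethasone and 24.7 ± 3.71 FPKM with vehicle. Neither was Timp1, a protease inhibitor, at 12.1 ± 5.94 FPKM with dexamethasone and 14.8 ± 9.19 FPKM with vehicle.

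Of 18 adipogenic and metabolic genes 9 were tested and none was called, against 1.15% called higher and 0.388% called lower of all tested loci. Of the 9, 1 had an unadjusted limma p under 0.05, against 13.6% of all tested loci, and the median log2 change was -0.18. Scd1, a fatty acid desaturase, had 74.1 ± 7.60 FPKM with dexamethasone and 73.7 ± 7.69 FPKM with vehicle. Srebf1, a regulator of lipid synthesis in a row joined with mmu-mir-6922, had 60.7 ± 15.6 FPKM with dexamethasone and 55.1 ± 8.77 FPKM with vehicle. Fasn, the fatty acid synthase, had 48.3 ± 11.2 FPKM with dexamethasone and 62.4 ± 14.2 FPKM with vehicle (limma adjusted p = 0.392). None of 10 myeloid targets reached a mean of 1 FPKM, the highest being Cd14 at 0.936, Runx1 at 0.738 and Csf3r at 0.169 FPKM.

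Around Cebpz, 0 of 14 tested ribosome assembly factors were called, against 1.15% called higher and 0.388% called lower of all tested loci. Of the 14, 2 had an unadjusted limma p under 0.05, against 13.6% of all tested loci, and the median log2 change was -0.12. Npm1, which codes for nucleophosmin, had 735 ± 79.6 FPKM with dexamethasone and 707 ± 82.0 FPKM with vehicle. Rrp1 had 70.8 ± 7.15 FPKM with dexamethasone and 68.8 ± 4.61 FPKM with vehicle. Nop56 spread from 122 to 2729 FPKM over the dexamethasone libraries and from 146 to 1000 FPKM over the vehicle libraries, in a row joined with Snord57, a small nucleolar RNA gene, and others. Of 4 CCAAT box factors of the NF-Y and Y-box families, 0 were called and 0 had an unadjusted limma p under 0.05, against the same shares. Their median log2 change was -0.02. Ybx1 had 590 ± 16.5 FPKM with dexamethasone and 575 ± 17.7 FPKM with vehicle, Nfya had 20.8 ± 5.78 FPKM with dexamethasone and 25.0 ± 3.68 FPKM with vehicle, and Nfyb had 19.8 ± 2.51 FPKM with dexamethasone and 20.9 ± 2.06 FPKM with vehicle.

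**Figure D4:**
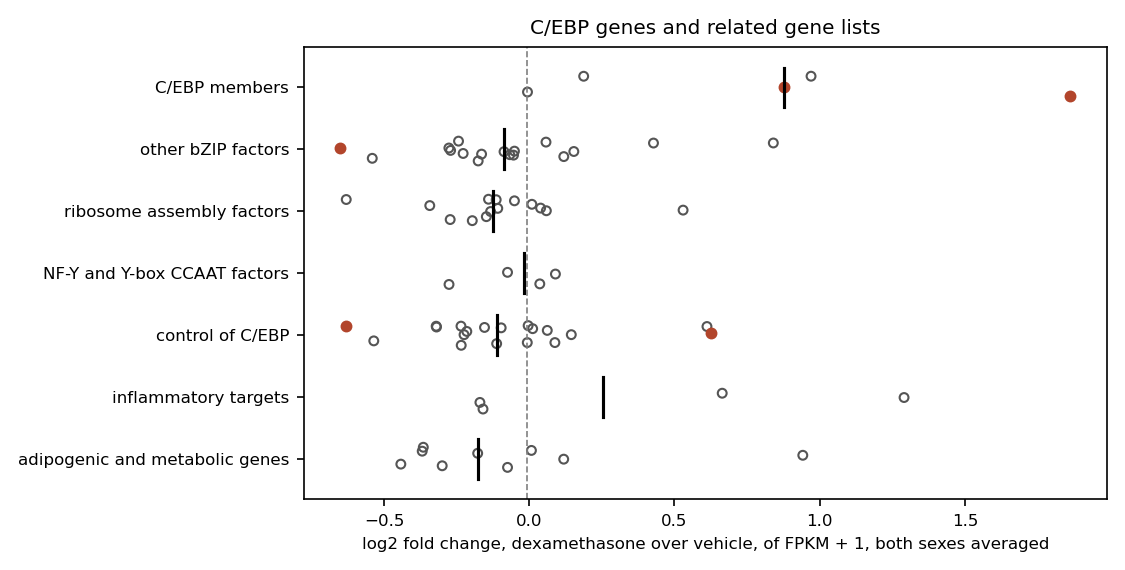
Log2 change of FPKM + 1, dexamethasone over vehicle with both sexes averaged, for the C/EBP genes and the tested genes of 6 related lists. Each circle is a gene, filled where called by limma, with a black bar at the list's median and a dashed line at the median of all tested loci (-0.01); Lcn2, listed at 0 with vehicle, is neither drawn nor counted in its list's median of 0.25. The medians lie at 0.88 for the C/EBP genes and between -0.18 and -0.02 for the lists other than the inflammatory targets.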

How the data were processed

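RNA was measured in 12 libraries of mouse hypothalamic neurospheres. The authors deposited FPKM values for 40597 loci, which carry no counts, so absolute depth is unknown and no counting interval is given. Per the submitters' processing notes, TopHat2 2.0.9, Cuffdiff 2.2.1 and Cufflinks 2.2.1 were used with GRCm38. Annotation release and strand setting: not given in the sources used here. At loci with low values that rise in steps, 1 fragment was worth 1 to 1.47 times its value in male vehicle library 3, from as few as 7 loci, a rough guide to relative depth.

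For testing, log2(FPKM + 1) entered limma 3.58.1 (R 4.3.3), with 1 mean per group over all 12 libraries and a mean-variance trend. The two-sided tests covered the 14931 loci that averaged 1 FPKM or more, with Benjamini-Hochberg adjustment and calls at an adjusted p under 0.05. The log2(FPKM + 1) scale understates the change of low genes. Groups came from the labels. Gene coordinates came from GENCODE M21 by Ensembl identifier, because the deposited coordinates span overlapping loci.

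The members and lists were chosen with earlier results of these data known. Named from each list were its called genes, up to 6, and the 3 with the highest mean FPKM, and for Cebpd and Cebpb the 5 nearest loci in profile. Fkbp5 and loci near a member were also named. 1 gene that this rule names is not reported here. Alternatives changed the pseudocount, filter, scaling, variance model, libraries and replicate block.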

Additional observations from a re-analysis of the deposited data

How the results depend on the processing

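The averaged effect on Cebpd stayed called under all alternatives, while those on Cebpa and Cebpb crossed the threshold. Cebpb (0.97, limma adjusted p = 0.0523) was called with a pseudocount of 0.1 (1.47, adjusted p = 0.0351) or 0.5 (1.19, adjusted p = 0.0446) and with robust variance estimates (0.97, adjusted p = 0.0491). Cebpb was not called with no filter on low values (adjusted p = 0.0875), median ratio scaling (adjusted p = 0.0544) or quantile normalization (adjusted p = 0.0523). These values are a description only, since Cebpb passed the filter of 1 FPKM only through the dexamethasone libraries. Cebpa was not called with no filter on low values, which tests more loci (0.88, adjusted p = 0.0850), and Jun and Klf4 lost their calls there as well (adjusted p = 0.0544 and 0.0860), and with a mean of at least 5 FPKM neither Cebpa nor Cebpb gave a value. That filter, which tests fewer loci, brought Cebpd under the threshold in females (1.89, adjusted p = 0.0474). Median ratio scaling turned the Cebpz change in males to -0.0029. No setting moved the median of all tested loci by over 0.1. Fits on the 6 libraries of 1 sex called 27 loci in females and 21 in males, against 72 in females and 47 in males in the fit over all 12 libraries.

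An alternative chosen after seeing the data left out male dexamethasone library 2 and male vehicle library 3, with over 50% unnamed FPKM. Cebpa was then not called (0.76, adjusted p = 0.223), the interaction of Cebpb was -0.11, and 114 loci were called in the averaged effect, 19 in males and 8 for the interaction. Jun and Klf4 were not called either (adjusted p = 0.176 for both). The cause was not tested.

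Within a sex, dexamethasone and vehicle libraries of the same replicate number deviated from their group means with correlations of 0.0819 to 0.167. Not all were above 0.1, so the main fit did not take the numbers as pairs. All were positive, while the correlations between different numbers lay from -0.147 to 0.0338. The fit with the replicate block is therefore given beside the main fit. As a hint from the data, each dexamethasone library correlated best with the vehicle library of its own number. With the replicate block Cebpb was called (0.97, adjusted p = 0.0274), Cebpa had an adjusted p of 0.0313 and Cebpd of 0.0114. The replicate block called 804 loci in the averaged effect, 420 higher and 384 lower, against 229 without it, 171 higher and 58 lower. It called 187 in females, 148 in males and 8 for the interaction against 5. Of the genes in the lists it called 6 more, named after their values were seen: Batf3 (adjusted p = 0.0418), Fosl2 (0.0121), Trib1 (0.0105), Trib2 (0.0315), Celf1 (0.0213) and Klf15 (0.0213).

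Leaving out 1 library at a time gave averaged log2 changes of 0.79 to 1.04 for Cebpa, 0.84 to 1.10 for Cebpb, 1.75 to 2.02 for Cebpd, 0.12 to 0.23 for Cebpg and -0.058 to 0.049 for Cebpz. Cebpd in females ranged from 1.66 to 2.21 and was called without female vehicle library 1 (adjusted p = 0.0362) or male vehicle library 1 (adjusted p = 0.0489). Cebpg ranged from 0.11 to 0.32 in females and from 0.061 to 0.18 in males, never called, and Cebpz from -0.12 to 0.095 in females and from -0.050 to 0.041 in males. The interaction changed sign within -0.21 to 0.28 for Cebpa, -0.12 to 0.34 for Cebpb, -0.25 to 0.37 for Cebpd, -0.025 to 0.18 for Cebpg and -0.12 to 0.092 for Cebpz. Called loci numbered 146 to 215 in the averaged effect, lowest without female dexamethasone library 1. They numbered 31 to 74 in females (31, 45 and 38 without female dexamethasone library 1, female dexamethasone library 3 and female vehicle library 3), 28 to 49 in males (29, 28 and 31 without male vehicle library 1, 2 and 3), 4 to 14 for the interaction and 15 to 28 for the sex difference (28 without female vehicle library 1).

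Without counts, a low FPKM such as that of Cebpb with vehicle has no counting error attached, and its precision rests on the spread of 3 libraries a group. Protein, DNA binding and dimers were not measured, and 1 time and 1 dose were given. Libraries are whole cultures.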
